A study of Mus musculus with 26 samples.

Results

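The interferon receptor chains Ifngr1, Ifngr2, Ifnar1 and Ifnar2, the kinases Jak1 and Jak2, the transcription factor subunits Stat2 and Irf9, and the feedback inhibitor Socs1 were followed through mouse gliomas of 5 genotypes. These 9 genes were found by Entrez identifier among the 24454 genes of the deposited table, and all 9 were among the 15617 genes with enough counts to be tested. They fall into 6 genes that supply receptors and kinases and 3 that interferon itself induces. RNA came from GFP-positive tumour cells, in which Cre had switched on a GFP reporter at the Rosa locus. Early gliomas were micro-dissected from mouse brains and the cells were sorted by flow cytometry, and total RNA was sequenced in 26 libraries. All tumours were labelled as PDGF-driven and Trp53-/-. They were labelled Rbpj-/- (n = 4), Notch1-/-Notch2-/- (n = 5), Notch1-/- (n = 6), Notch2-/- (n = 5), and control (n = 6), the last with Notch1, Notch2 and Rbpj wild type. The sources do not state the mice's age, what drove Cre, or whether replicates were separate animals. A p-value here therefore reflects library-to-library spread alone, part of which could be technical. The 4 mutant groups share the same 6 controls.

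Interferon gamma binds a receptor of Ifngr1 and Ifngr2 chains, and type I interferons bind Ifnar1 and Ifnar2. The chains hold JAK kinases on their inner side, Jak1 on both receptors and Jak2 on the gamma receptor, and the activated kinases phosphorylate STAT proteins, which then enter the nucleus. Stat2 acts together with the DNA-binding protein Irf9 in the complex that type I interferon assembles, both are themselves induced by interferon, and Socs1 is an induced inhibitor that binds JAK kinases and shuts the pathway off. In the brain, interferon released by T cells, natural killer cells and myeloid cells can reach glioma cells.

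The start regions of the genes were read first, because they show which members carry the letters of an interferon response element. RefSeq start sites of build GRCm38.p6 gave 32851 windows of 250 bases before a start, 10 of them of members, 2 for Irf9 and 1 for each other gene. The core letters of the interferon-stimulated response element, GAAA, any 2 bases and GAAA again, on either strand, stood in 2.98% of all windows. They stood in the windows of Stat2 and Socs1, in neither window of Irf9, and in 0 of 6 windows of the receptor and kinase genes. In the reference lists of interferon-responsive genes they stood in 8 of 20 windows of type I response genes and in 10 of 22 windows of gamma response genes. The letters TTCNNNGAA of the gamma-activated sequence, which read the same on both strands, stood in 7.02% of all windows and, among members, in that of Ifnar2. Shown here 5′ to 3′ on the gene's strand, each ending at the base before the start, are both inducible members with a match, Irf9 without one, and the receptor chain Ifngr1, to which the largest number of calls below belong. The windows are chr10:128270248-128270497 (plus strand) for Stat2, chr16:10785537-10785786 (minus strand) for Socs1, chr14:55603735-55603984 (plus strand) for Irf9 and chr10:19591699-19591948 (plus strand) for Ifngr1. Capitals mark these letters or their reverse complement.
Stat2: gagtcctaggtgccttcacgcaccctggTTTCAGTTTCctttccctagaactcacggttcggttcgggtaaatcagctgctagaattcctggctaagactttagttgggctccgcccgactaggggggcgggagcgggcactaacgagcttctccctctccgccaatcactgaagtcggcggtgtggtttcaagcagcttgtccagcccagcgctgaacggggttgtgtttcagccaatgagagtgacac
Socs1: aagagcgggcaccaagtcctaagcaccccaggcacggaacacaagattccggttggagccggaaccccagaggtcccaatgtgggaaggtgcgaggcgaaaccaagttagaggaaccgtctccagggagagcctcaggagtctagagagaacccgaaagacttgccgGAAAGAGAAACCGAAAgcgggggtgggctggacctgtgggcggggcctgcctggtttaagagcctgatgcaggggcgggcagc
Irf9: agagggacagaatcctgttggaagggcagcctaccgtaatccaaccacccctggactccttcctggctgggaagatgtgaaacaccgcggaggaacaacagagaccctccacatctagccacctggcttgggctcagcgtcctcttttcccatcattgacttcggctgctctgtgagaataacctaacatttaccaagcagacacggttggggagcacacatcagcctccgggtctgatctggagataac
Ifngr1: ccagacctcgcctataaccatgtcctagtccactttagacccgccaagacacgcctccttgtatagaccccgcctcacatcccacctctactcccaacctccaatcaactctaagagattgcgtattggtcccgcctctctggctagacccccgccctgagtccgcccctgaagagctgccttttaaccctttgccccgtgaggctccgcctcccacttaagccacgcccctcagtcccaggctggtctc
The match in Stat2 lay on the opposite strand, at bases 222 to 213 before the start. Socs1 held a pair of overlapping matches, at bases 83 to 74 and 77 to 68. A match here is a run of letters and not a measured binding site.

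Libraries held 30868828 to 48103535 counts each. Markers of oligodendrocyte precursors, the cell type these PDGF gliomas resemble, were abundant in every library, with Pdgfra at 1683 to 7177 CPM (counts per 1000000 scaled counts) and Olig2 at 373 to 730 CPM. Notch2 was lower in Notch2-/- tumours than in controls (log2 fold change -0.79 ± 0.15, SE, edgeR quasi-likelihood adjusted p = 0.0200), and Rbpj was lower in Rbpj-/- tumours (-0.70 ± 0.20, adjusted p = 0.0222). Notch2 in Notch1-/-Notch2-/- tumours (-0.18, adjusted p = 0.377) and Notch1 in Notch1-/- tumours (0.40, adjusted p = 0.204) did not differ from control beyond the spread. Trp53, labelled as lost in all groups, was at 8.14 to 18.1 CPM over the 26 libraries. The deleted exons are not stated, and a count over the whole gene need not show the deletion. Notch2 was at 6.14 to 8.58 CPM in Notch2-/- libraries and 9.43 to 12.9 CPM in Notch1-/-Notch2-/- libraries, against 9.42 to 16.4 CPM in control libraries. The counts thus showed a Notch2 loss in the single mutant but not in the double mutant, whose Notch2 loss rests on its label. Control replicate 6 and Notch2-/- replicates 3 and 4 held both Xist and the Y-linked Ddx3y.

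Per length, 8 of the 9 genes had medians within a narrow band, with Socs1 below it. In CPM per kilobase of the deposited gene length, the median level over 26 libraries was 25.9 for Jak2, 21.4 for Irf9, 19.2 for Ifngr2, 18.4 for Jak1, 17.6 for Ifngr1, 16.8 for Ifnar1, 15.9 for Ifnar2, 10.9 for Stat2 and 0.641 for Socs1. Each neighbour's range overlapped the next in this order, and only Stat2 stood above its neighbour, Socs1, in 26 of 26 libraries. The gamma receptor chains and the type I receptor chains were within about the same range per length, the ratio of Ifngr2 to Ifngr1 running from 0.683 to 1.75 and that of Ifnar1 to Ifnar2 from 0.472 to 1.64 over all libraries.

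Each receptor and kinase gene varied less between libraries than each inducible gene. The SD of log2 CPM between libraries of the same genotype was 0.157 for Ifngr1, 0.173 for Ifnar1, 0.213 for Jak1, 0.231 for Ifngr2, 0.375 for Ifnar2 and 0.518 for Jak2. It was 0.963 for Irf9, 1.03 for Stat2 and 1.28 for Socs1, against a median of 0.384 over all genes tested. Of all genes tested, 4.15% varied less than Ifngr1 and 91.7% less than Irf9, the steadiest of the inducible members. Genotype accounted for 57.1% of the variance of Ifngr1 and 54.2% of that of Jak1. For the other 7 members it accounted for 19.8% to 31.5%, and the median over all genes tested was 31.4%. These shares were not corrected for the number of groups, so some of each would arise without a genotype effect.

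**Figure D1:**
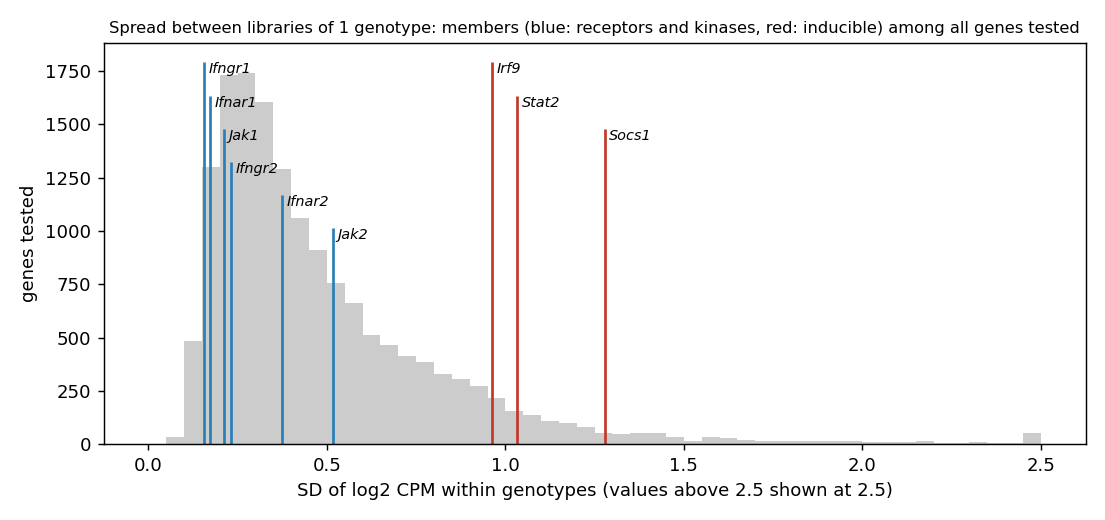
Within-genotype SD of log2 CPM (horizontal axis) for all genes tested (grey bars, number of genes on the vertical axis), with the receptor and kinase genes as blue lines and the inducible genes as red lines. The blue lines lie between 0.157 and 0.518 and the red lines between 0.963 and 1.28.

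Ifngr1 (chr10:19591949-19610229, GRCm38.p6), the chain that binds interferon gamma, fell in Rbpj-/- tumours and in Notch1-/- tumours. The Rbpj-/- libraries held 34.6, 27.03, 35.1 and 32.1 CPM. Notch1-/- libraries ranged from 27.9 over a median of 33.1 to 38.7 CPM. Control libraries ranged from 36.9 over a median of 43.4 to 51.6 CPM. All 4 Rbpj-/- libraries lay below every control, as did 5 of 6 Notch1-/- libraries. The difference from control was -0.43 ± 0.11 in Rbpj-/- (log2 fold change ± SE, adjusted p = 0.0164) and -0.39 ± 0.10 in Notch1-/- (adjusted p = 0.00801). Notch1-/-Notch2-/- libraries held 34.4, 46.4, 35.2, 37.9 and 37.1 CPM, a difference from control of -0.19 ± 0.11 (adjusted p = 0.172). Notch2-/- libraries held 37.0, 37.5, 43.0, 40.3 and 39.7 CPM, a difference of -0.14 ± 0.11 (adjusted p = 0.529). Both of these groups overlapped the controls, although 4 of 5 and 5 of 5 libraries were under the control median.

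Ifngr1 was the only member called in Rbpj-/- against control, where 15.2% of all genes tested passed, and the only one whose libraries did not overlap the controls, as was so for 7.74% of genes. In Notch1-/- against control 2 of 9 members passed, Ifngr1 and Jak2, where 26.7% of all genes did. No member's libraries stood wholly apart from the controls in Notch1-/-, as 7.66% of genes did, or in Notch1-/-Notch2-/-, as 22.7% did. Of 9 members, 1 or 2 is thus near or below the background share of each comparison. The Rbpj-/- call ended without Rbpj-/- replicate 2 (-0.35, adjusted p = 0.0708) and with only the 10 compared libraries in the fit (-0.46, adjusted p = 0.0913). For Rbpj-/- the adjusted p of Ifngr1 ran from 0.00199 to 0.530 over 9 alternatives. The Notch1-/- call of Ifngr1 held in all 12 omissions of a library (adjusted p 0.00343 to 0.0262). Over 9 alternatives its adjusted p ran from 5.56e-04 to 0.665. That call ended only with the microglia and macrophage score described below, with which the Rbpj-/- call ended too.

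Markers of microglia and macrophages fell in both groups in which Ifngr1 did, and in Notch1-/-Notch2-/- as well. The summed level of 21 such genes was 146 to 267 CPM in Rbpj-/-, 56.1 to 186 CPM in Notch1-/-Notch2-/-, 62.3 to 308 CPM in Notch1-/-, 338 to 799 CPM in Notch2-/- and 403 to 1685 CPM in control libraries. Of the 21 genes, 19 fell in Rbpj-/-, 19 in Notch1-/-Notch2-/-, 20 in Notch1-/- and 0 in Notch2-/-. The shares of all genes tested that passed in these comparisons, in either direction, were 15.2%, 37.1%, 26.7% and 0.295%. Of the defining markers P2ry12, Tmem119 and Cx3cr1 none was at 0 in any library. Of 15 endothelial genes 9 fell in Rbpj-/-, 13 in Notch1-/-Notch2-/- and 12 in Notch1-/-. Of 16 mature oligodendrocyte genes 9 fell in Rbpj-/-, 12 in Notch1-/-Notch2-/- and 10 in Notch1-/-. Of 15 astrocyte genes 6 fell in Rbpj-/-, 10 in Notch1-/-Notch2-/- and 9 in Notch1-/-, and in Notch2-/- no gene of these 3 lists fell by edgeR. In Notch2-/- the estimates were nevertheless below 0 for 20 of 21 microglia and macrophage genes (median -0.74), 15 of 15 endothelial genes (median -0.55), 15 of 16 mature oligodendrocyte genes (median -0.74) and 8 of 15 astrocyte genes (median -0.06). At an unadjusted p under 0.05 stood 9, 1, 0 and 2 genes of these 4 lists there, DESeq2 called 6 microglia and macrophage genes lower and 1 astrocyte gene higher, and voom called 9, 0, 4 and 2. The share of all genes at that unadjusted p is not given. With the microglia and macrophage score, the mean log2 CPM of its list, added to the fit, Ifngr1 differed by -0.25 in Rbpj-/- (adjusted p = 0.530) and by -0.16 in Notch1-/- (adjusted p = 0.665), and no member was called against control. Over all genes tested, calls went from 2378 to 50 in Rbpj-/- and from 4174 to 41 in Notch1-/-. In the summed level, every Rbpj-/-, Notch1-/-Notch2-/- and Notch1-/- library lay below every control. The fit therefore cannot separate the score from genotype in these groups, and the lost calls are no result about Ifngr1. Fewer cells of a type and less RNA per cell cannot be told apart in such samples, and a part of the other 3 cell types in the member values was not tested.

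Ifngr2 (chr16:91547059-91564007), the signalling chain of the gamma receptor, passed by edgeR in no contrast. Its mean was 46.0 ± 9.69 CPM in Rbpj-/- (SD, n = 4), 34.8 ± 5.76 CPM in Notch1-/-Notch2-/- (n = 5), 40.5 ± 7.77 CPM in Notch1-/- (n = 6), 42.2 ± 3.88 CPM in Notch2-/- (n = 5) and 38.6 ± 3.92 CPM in control (n = 6). Each mutant group overlapped the controls. The ratio of Ifngr2 to Ifngr1 per length was 1.17 to 1.75 in Rbpj-/- libraries, against 0.702 to 1.06 in control libraries. In Notch1-/- libraries it ran from 0.738 to 1.60. These ratios were looked at after the levels were known and were not tested.

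The type I receptor chains Ifnar1 (chr16:91485032-91510523) and Ifnar2 (chr16:91372783-91405589) did not pass by edgeR in any contrast. For Ifnar2, voom called a lower level in Notch2-/- than in control (-0.57, adjusted p = 0.0304, the lowest of 9 alternatives that reached 0.773). Ifnar1 was the steadier, at a mean of 116 ± 8.60 CPM in Rbpj-/-, 106 ± 14.9 CPM in Notch1-/-Notch2-/-, 122 ± 6.64 CPM in Notch1-/-, 129 ± 11.7 CPM in Notch2-/- and 112 ± 18.8 CPM in control. Ifnar2 averaged 51.3 ± 9.90 CPM in Rbpj-/-, 47.3 ± 5.48 CPM in Notch1-/-Notch2-/-, 56.6 ± 27.3 CPM in Notch1-/-, 44.1 ± 6.90 CPM in Notch2-/- and 63.4 ± 17.0 CPM in control. Its differences from control were -0.31 in Rbpj-/-, -0.42 in Notch1-/-Notch2-/-, -0.16 in Notch1-/- and -0.53 in Notch2-/-, with adjusted p of 0.144 to 0.582, and every Rbpj-/-, Notch1-/-Notch2-/- and Notch2-/- library lay below the control median. A single Notch1-/- library, replicate 2, stood at 110 CPM, and without it Ifnar2 was called lower in Notch1-/- (-0.45, adjusted p = 0.0417). Over 12 such omissions the adjusted p ran from 0.0417 to 0.853.

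**Figure D2:**
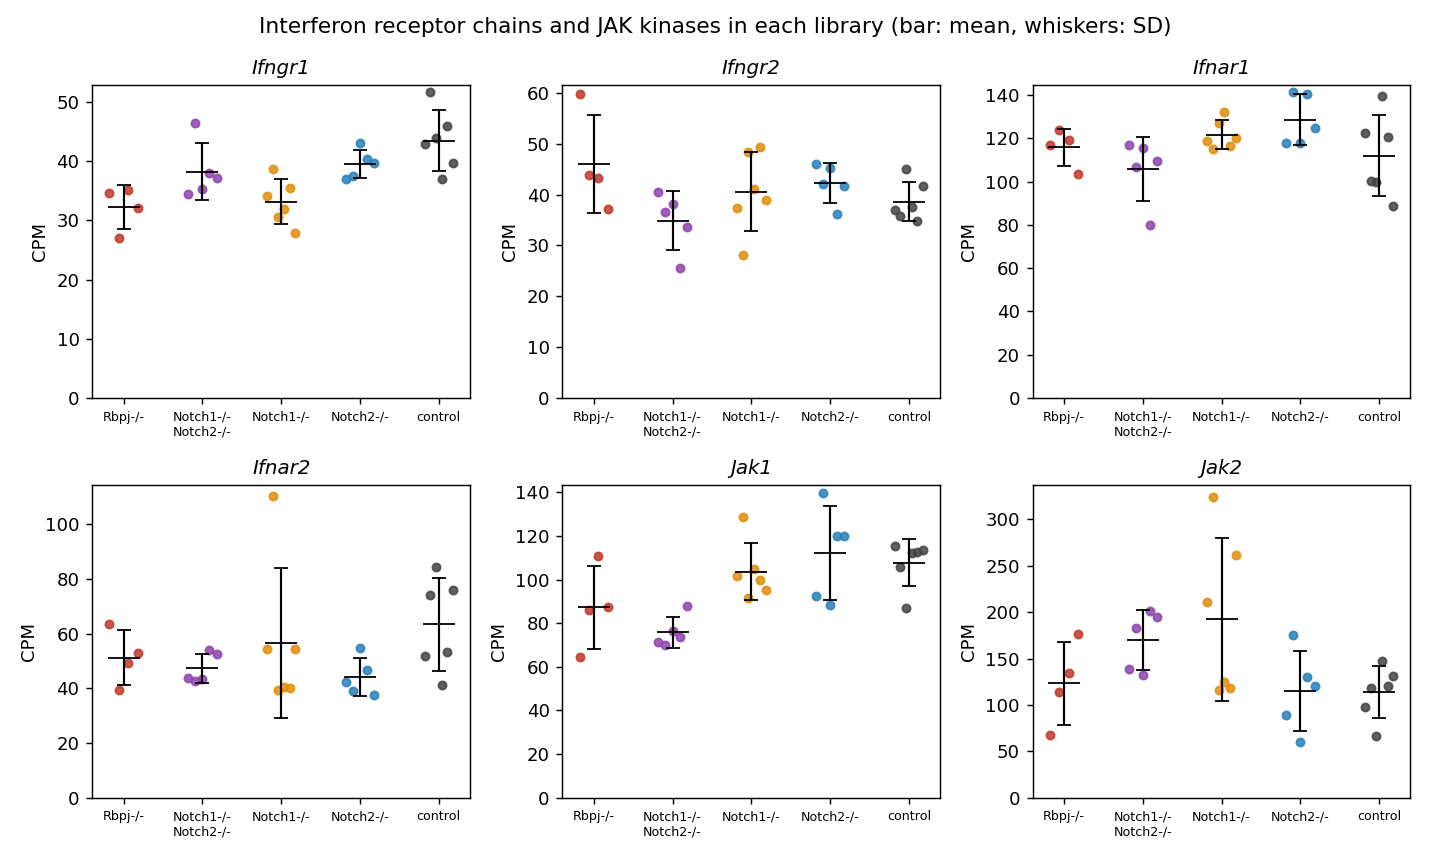
CPM (vertical axis, from 0) of the 6 receptor and kinase genes in each library of the 5 genotypes; points are libraries, the long bar is the mean and the whiskers the SD. All 4 Rbpj-/- points of Ifngr1 lie below the lowest control, 4 of 5 Notch1-/-Notch2-/- points of Jak1 do, and 1 Notch1-/- point of Ifnar2 stands at 110 CPM.

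Jak1 (chr4:101151974-101265282), the kinase shared by both receptors, fell in Notch1-/-Notch2-/- tumours. Their libraries held 71.3, 69.9, 76.3, 73.6 and 87.8 CPM, against 87.0 to 115 CPM with a median of 113 CPM in control libraries. Of 5 libraries, 4 lay below every control, and the fifth lay above only the lowest control, replicate 3. The difference was -0.51 ± 0.13 (log2 fold change ± SE, adjusted p = 0.00517). Jak1 was the 1 member of 9 called in this comparison, where 37.1% of all genes tested passed. The call held without each library in turn (adjusted p 0.00362 to 0.0167) and ended with the microglia and macrophage score in the fit (-0.40, adjusted p = 0.294). Over all genes, 5794 passed in this comparison without that score and 879 with it. Over 9 alternatives the adjusted p ran from 1.81e-04 to 0.294.

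In the other mutants Jak1 was not called. Rbpj-/- libraries held 64.5, 86.2, 111 and 87.5 CPM, all under the control median, and the difference of -0.30 ± 0.14 (adjusted p = 0.145) passed only without Rbpj-/- replicate 3 (-0.44, adjusted p = 0.0366, in a range of 0.0366 to 0.384 over 10 omissions). Notch1-/- libraries ranged from 91.4 over a median of 101 to 129 CPM (-0.06 ± 0.13, adjusted p = 0.764). Notch2-/- libraries held 92.6, 140, 88.4, 120 and 120 CPM (0.06 ± 0.13, adjusted p = 0.849). The interaction of both losses, the difference of the double mutant from the sum of the single ones, was -0.51 ± 0.19 (adjusted p = 0.281). By edgeR 0 of 9 members passed for this interaction, where 0.0768% of all genes did, 3 had an unadjusted p under 0.05 (Ifngr1, Ifnar1 and Jak1), DESeq2 called 0, and voom called 1, Jak1. Of all genes DESeq2 called 124 and voom 924 for it.

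Jak2 (chr19:29251803-29313095), the kinase of the gamma receptor, rose in Notch1-/- tumours, at a value close to the threshold. Notch1-/- libraries ranged from 116 over a median of 168 to 324 CPM, against 67.1 to 147 CPM with a median of 120 CPM in control libraries. Replicates 2, 6 and 1, at 324, 262 and 211 CPM, stood above every control, while replicates 3, 4 and 5, at 116 to 124 CPM, lay within the controls. The difference was 0.76 ± 0.28 (adjusted p = 0.0466). It ended in 7 of 9 alternatives, with adjusted p of 0.0303 to 0.111 over the 9, and in 8 of 12 omissions of a library, with 0.0276 to 0.119 over the 12. The libraries whose omission ended it were Notch1-/- replicates 1, 2 and 6 (0.0813, 0.119 and 0.108) and control replicates 1, 2, 3, 5 and 6 (0.0617 to 0.111).

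Notch1-/-Notch2-/- libraries held 139, 183, 132, 202 and 194 CPM of Jak2, all over the control median and 3 of 5 above every control. The difference of 0.58 ± 0.29 (adjusted p = 0.119) passed with only the compared libraries in the fit (adjusted p = 0.0306, the lowest of 9 alternatives that reached 0.152). Rbpj-/- libraries held 68.1, 114, 134 and 177 CPM (0.11 ± 0.31, adjusted p = 0.829), and Notch2-/- libraries 89.3, 175, 60.0, 130 and 121 CPM (0.02 ± 0.29, adjusted p = 0.987). Both groups overlapped the controls. Per length, the ratio of Jak2 to Jak1 was 1.81 to 2.87 in Notch1-/-Notch2-/- libraries, against 0.809 to 1.37 in control libraries. It was 1.11 to 2.12 in Rbpj-/-, 1.24 to 2.88 in Notch1-/- and 0.711 to 1.31 in Notch2-/- libraries, again looked at after the levels were known and not tested.

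**Figure D3:**
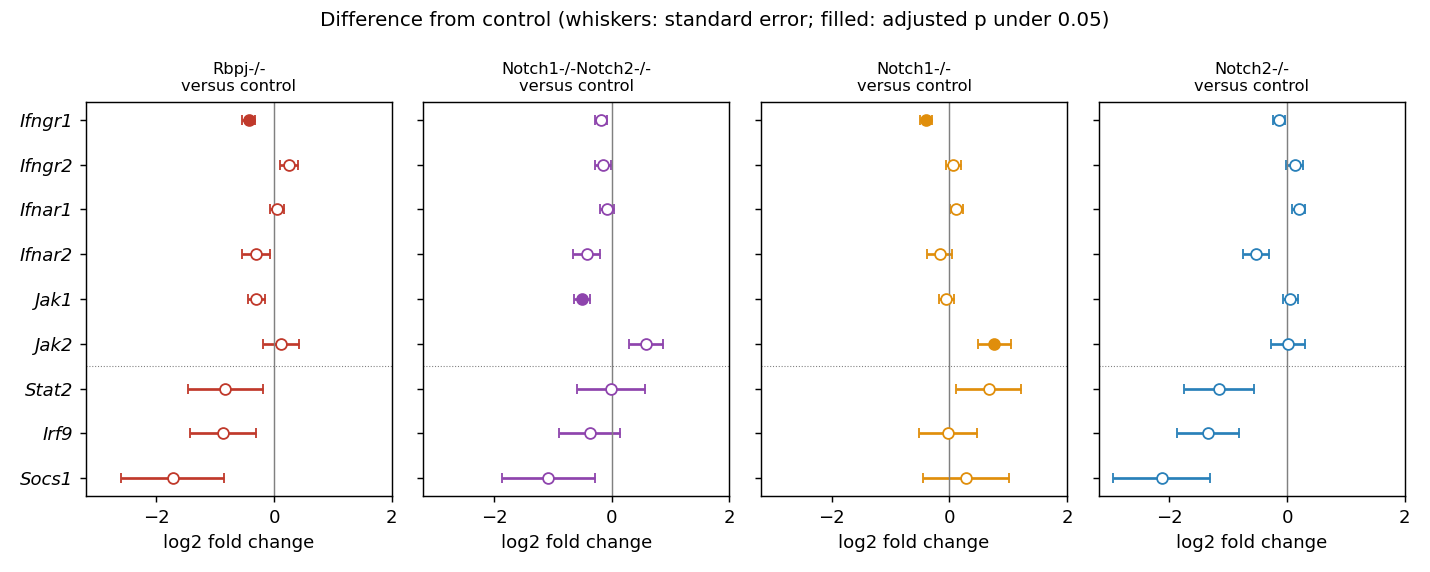
Log2 fold change of each member against control (horizontal axis) in the 4 mutant genotypes, with standard errors as whiskers and filled points where the adjusted p was under 0.05; receptor and kinase genes are above the dotted line and inducible genes below. Filled points are Ifngr1 in Rbpj-/- (-0.43) and Notch1-/- (-0.39), Jak1 in Notch1-/-Notch2-/- (-0.51) and Jak2 in Notch1-/- (0.76), and the inducible genes have the widest whiskers.

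Stat2 (chr10:128270498-128292853), the STAT subunit of the type I complex, varied widely between libraries of 1 genotype. Genotype accounted for 19.8% of its variance, a share not corrected for the number of groups. Notch1-/- libraries ranged from 27.2 over a median of 85.1 to 423 CPM, a span that held the lowest and the highest of all 26 libraries, 15.6-fold apart. Replicates 2, 6 and 1 held 423, 182 and 119 CPM and replicates 3, 4 and 5 held 30.7, 51.6 and 27.2 CPM. The highest 2 of these stood above every control and the lowest below every control. Control libraries ranged from 29.2 over a median of 85.2 to 134 CPM, with replicate 1 as the low one. Notch1-/-Notch2-/- libraries held 40.8, 43.2, 33.1, 201 and 117 CPM. Rbpj-/- libraries held 35.1, 35.6, 37.0 and 89.4 CPM. Of these 9 libraries, 1 stood above every control. The 5 Notch2-/- libraries, at 31.1, 62.2, 31.5, 43.9 and 28.5 CPM, were all under the control median, but the low control lay among them.

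The difference of Stat2 from control was -0.83 ± 0.64 in Rbpj-/-, -0.01 ± 0.58 in Notch1-/-Notch2-/-, 0.66 ± 0.56 in Notch1-/- and -1.15 ± 0.60 in Notch2-/-, with adjusted p of 0.365 to 0.992. The sign in Notch1-/- rested on 1 library: without Notch1-/- replicate 2 it was -0.08.

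Irf9 (chr14:55603985-55610030), the DNA-binding partner of Stat2, followed nearly the same order of libraries. Notch1-/- libraries ranged from 21.9 over a median of 90.5 to 170 CPM, and control libraries from 23.4 over a median of 89.6 to 141 CPM. Rbpj-/- libraries held 46.8, 27.6, 30.7 and 90.5 CPM, and Notch1-/-Notch2-/- libraries 47.3, 41.3, 28.5, 124 and 102 CPM. Notch2-/- libraries held 26.4, 67.9, 23.8, 36.7 and 20.7 CPM, all below the control median and overlapping the controls. The differences from control were -0.87 ± 0.57 in Rbpj-/-, -0.38 ± 0.52 in Notch1-/-Notch2-/-, -0.02 ± 0.49 in Notch1-/- and -1.34 ± 0.53 in Notch2-/- (adjusted p 0.268 to 0.981). The span over all libraries was 8.21-fold.

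Socs1 (chr16:10783808-10785536), the feedback inhibitor, was low and the most variable member, with 12 to 508 counts per library and a 43.7-fold span in CPM. Notch2-/- libraries held 0.874, 0.684, 0.823, 0.480 and 0.435 CPM. Control libraries ranged from 0.941 over a median of 2.19 to 6.19 CPM. All 5 Notch2-/- libraries thus lay below every control, as was so in either direction for 1.59% of all genes tested, yet the difference of -2.13 ± 0.82 did not pass (adjusted p = 0.263). By edgeR 0 of 9 members were called in Notch2-/- against control, where 0.295% of all genes were. At an unadjusted p under 0.05 stood 3 (Ifnar2, Irf9 and Socs1), DESeq2 called 0 and voom 2 (Ifnar2 and Socs1). Of the 15617 genes tested, DESeq2 called 344 and voom 1790 in this comparison. The share of all genes at that unadjusted p is not given here.

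Rbpj-/- libraries held 0.843, 0.625, 0.334 and 1.67 CPM of Socs1, with 3 of 4 below every control (-1.73 ± 0.88, adjusted p = 0.181). Notch1-/-Notch2-/- libraries held 0.455, 0.318, 0.606, 4.37 and 1.10 CPM (-1.08 ± 0.79, adjusted p = 0.289). Without replicate 4 the last value was -2.22 (adjusted p = 0.0452, in a range to 0.522 over 11 omissions), and with all libraries voom called Socs1 lower there (-1.64, adjusted p = 0.0374, in a range to 0.542 over 8 alternatives). Notch1-/- libraries ranged from 0.470 over a median of 1.43 to 13.9 CPM, with replicate 2 at the top, and the difference of 0.28 ± 0.73 (adjusted p = 0.801) was -1.01 without it.

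**Figure D4:**
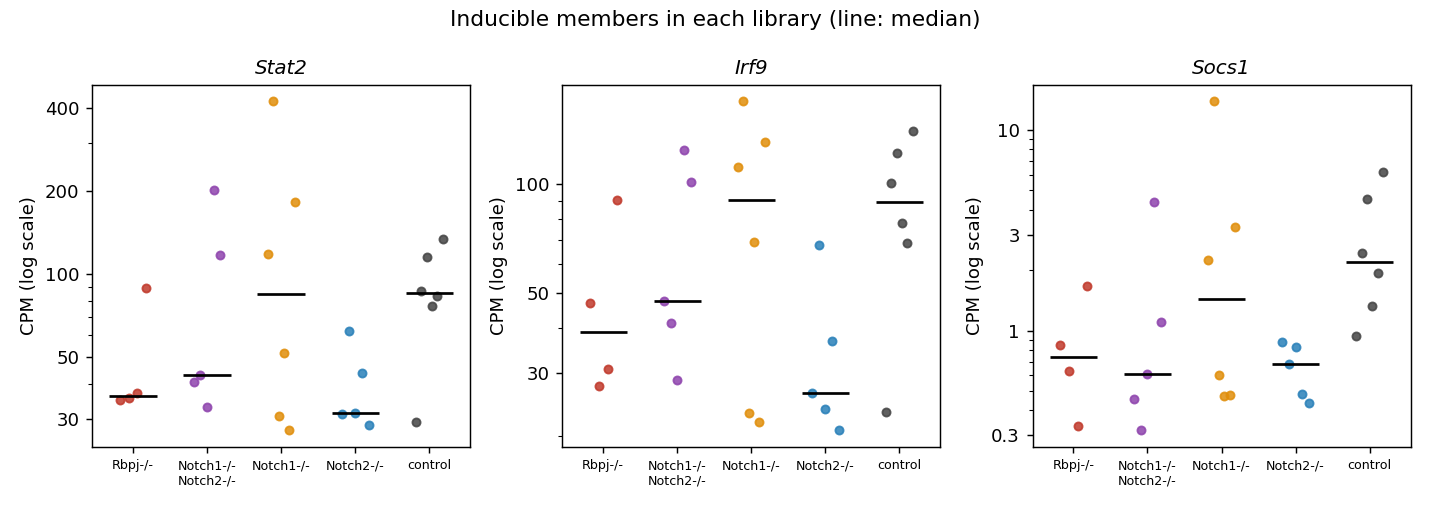
CPM on a log scale (vertical axis) of Stat2, Irf9 and Socs1 in each library of the 5 genotypes; points are libraries and lines medians. Notch1-/- replicate 2 is the highest point in each panel (423, 170 and 13.9 CPM), and the 5 Notch2-/- points of Socs1 lie below the lowest control at 0.941 CPM.

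The single receptor losses were also set against each other. In Notch1-/- against Notch2-/- the inducible members differed by 1.82 ± 0.61 (Stat2), 1.33 ± 0.53 (Irf9) and 2.40 ± 0.83 (Socs1), with adjusted p of 0.104 to 0.171. By edgeR 0 of 9 members passed here, where 3.09% of all genes did. An unadjusted p under 0.05 was reached by 5 members (Ifngr1, Jak2, Stat2, Irf9 and Socs1), DESeq2 called 1, Socs1, and voom called 1, Ifngr1. Of all genes DESeq2 called 1099 and voom 1904 here, and the share at that unadjusted p is not given. Groups overlapped in the low values, since Notch1-/- replicates 3 and 4 lay within the Notch2-/- range of Stat2 and replicate 5 below it. In the fit with the microglia and macrophage score 756 of 15617 genes tested passed. There 5 members were called higher in Notch1-/-, at 0.90 for Ifnar2, 1.27 for Jak2, 3.07 for Stat2, 2.48 for Irf9 and 3.79 for Socs1 (adjusted p 0.00786 to 0.0483). Over the alternatives, the highest adjusted p of each of these genes was between 0.365 and 0.561. That score was lower in Notch1-/-, where 12 of its 21 genes fell against Notch2-/-. In the summed level every Notch1-/- library (62.3 to 308 CPM) lay below every Notch2-/- library (338 to 799 CPM). The fit therefore cannot separate the score from genotype here either, and these calls are no result about the members.

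Rbpj-/- and Notch1-/-Notch2-/- tumours were set side by side as labelled losses of the shared effector and of both receptors. By edgeR 0 of 9 passed, where 0.794% of all genes did, 2 had an unadjusted p under 0.05 (Ifngr1 and Ifngr2), and DESeq2 and voom called 0 each. Ifngr1 differed by -0.25 ± 0.12 (adjusted p = 0.401) and Ifngr2 by 0.40 ± 0.16 (adjusted p = 0.295). Across the 5 genotypes together, Ifngr1 (adjusted p = 0.0145) and Jak1 (adjusted p = 0.0128) differed, 2 of 9 members where 29.3% of all genes did. With the microglia and macrophage score in the fit both calls ended (Ifngr1 adjusted p = 0.358, Jak1 adjusted p = 0.151), and Stat2 (adjusted p = 0.0247) and Socs1 (adjusted p = 0.0461) were called in their place. In that fit 903 of 15617 genes tested passed. The limit given above for the score holds here too, so neither the lost nor the gained calls are a result about these genes. DESeq2 called Socs1 (adjusted p = 0.0173) beside Ifngr1 and Jak1. Over 8 alternatives the adjusted p ran from 0.00109 to 0.358 for Ifngr1, from 3.37e-04 to 0.151 for Jak1 and from 0.0247 to 0.329 for Stat2, and over 7 alternatives from 0.0173 to 0.272 for Socs1.

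Members and their most similar genes were compared over 26 libraries, which share 5 genotypes and 1 sequencing study, as a description. Stat2 and Irf9 had a Pearson correlation of log2 CPM of 0.940 and a Spearman correlation of 0.977, and Pearson's stayed at 0.962 without the 2 libraries farthest from the Stat2 median. Within genotypes it was 0.934. Socs1 correlated with Stat2 at 0.886, with Ifnar2 at 0.834 and with Irf9 at 0.811. Without the 2 libraries farthest from the Socs1 median these values were 0.834, 0.714 and 0.769. Among the supply genes Jak2 correlated with Stat2 at 0.654, or 0.522 without the 2 libraries farthest from the Jak2 median. Ifnar2 correlated with Stat2 at 0.699, or 0.534 without the 2 libraries farthest from the Ifnar2 median. Ifngr2 ran the other way, at -0.664 with Stat2 and -0.690 with Jak2. Ifnar1 also ran against the inducible members, at -0.448 with Stat2, -0.444 with Irf9 and -0.540 with Socs1. With Stat2 this was -0.253 without the 2 libraries farthest from the Ifnar1 median. Ifngr1 (0.0576) and Jak1 (0.176) followed Stat2 closely in neither direction.

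**Figure D5:**
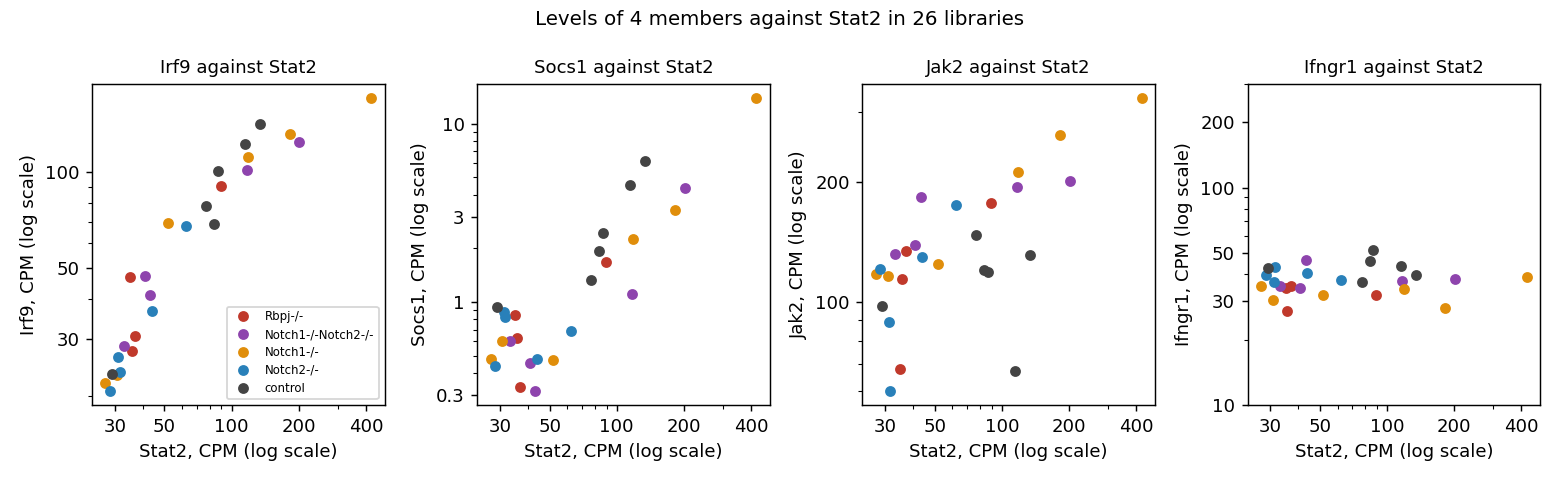
CPM of Irf9, Socs1, Jak2 and Ifngr1 (vertical axes, log scale) against CPM of Stat2 (horizontal axis, log scale) in 26 libraries, coloured by genotype. Irf9 and Socs1 are high in the libraries high in Stat2 (Pearson correlation of log2 CPM 0.940 and 0.886), Jak2 less closely (0.654), and Ifngr1 does not follow that order (0.0576).

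Among the 12016 tested genes whose log2 CPM averaged 1 or more, the genes with the highest Pearson correlation with Stat2 were the interferon-induced Parp12 (0.978), Parp11 (0.973) and Trim21 (0.969). Those most like Irf9 included the GTPase Irgm1 (0.974) and the MHC class I activator Nlrc5 (0.971). Socs1 was most like the proteasome activator subunit Psme1 (0.954), the peptide-loading factor Tapbpl (0.951) and the ISG15-conjugating enzyme Ube2l6 (0.935). The genes nearest to Jak2 were the kinase Ripk1 (0.945), Trappc11 (0.942) and Cenpj (0.930), and those nearest to Ifnar2 were Scamp2 (0.905), the NF-kappa-B inhibitor Nfkbie (0.890) and Idnk (0.889). For the steadier members the values were lower, led by Igsf11 for Ifngr1 (0.846), Mrps2 for Ifngr2 (0.848), Ctnnd1 for Ifnar1 (0.897) and Asah2 for Jak1 (0.887).

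Transcripts of the ligands themselves were near the limit of detection. None of the 12 interferon genes listed had enough counts to be tested. Ifng, interferon gamma, had 63 counts over all 26 libraries, in 10 of them, with 20 in Notch1-/- replicate 2 and 19 in control replicate 5. Ifna4 had 16 counts, all in control replicate 2, Ifnz had 13, Ifna2 had 3 and Ifnb1 had 2. Ifna1, Ifna5, Ifna13, Ifne, Ifnk, Ifnl2 and Ifnl3 had 0, which at this depth does not show that they were absent. Cells of the tumour outside the GFP gate were not analysed here.

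Markers of T and natural killer cells, the cells that release interferon gamma, were low, and in 4 of 5 genotypes the library with the highest sum was also the highest in Stat2. The summed level of 14 such genes, 7 of them tested, was 0.412 to 2.92 CPM in Rbpj-/-, 0.373 to 6.06 CPM in Notch1-/-Notch2-/-, 0.235 to 14.0 CPM in Notch1-/-, 0.378 to 0.931 CPM in Notch2-/- and 0.265 to 5.70 CPM in control libraries. The highest was Notch1-/- replicate 2, the library highest in Stat2, Irf9 and Socs1. Within Notch1-/-Notch2-/- the highest was replicate 4, also the highest there in these genes, and within Rbpj-/- replicate 4 was. In Notch2-/- the highest sum, 0.931 CPM, was that of replicate 5, the lowest there in Stat2, Irf9 and Socs1, while replicate 2, the highest in Stat2 and Irf9, was at 0.456 CPM. Of the defining markers, Cd3e was at 0 in 5 of 5 Notch2-/- libraries, 3 of 4 Rbpj-/- libraries and 2 libraries of each other group, and its highest value was 0.985 CPM. No gene of the list passed in any comparison with control by edgeR, while at an unadjusted p under 0.05 stood 2 in Rbpj-/- and 6 in Notch2-/-, of 7 tested, and 0 in Notch1-/-Notch2-/- and Notch1-/-, DESeq2 called 1 in Notch2-/- and voom 1 there. Without the share of all genes at that p, these counts are no result about the list. Whether T and natural killer cells have a part in the levels of the inducible members was not tested.

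Genes that interferon induces were seen in the same libraries. The summed level of 29 gamma response genes was 172 to 5755 CPM in Rbpj-/-, 181 to 10278 CPM in Notch1-/-Notch2-/-, 179 to 28210 CPM in Notch1-/-, 191 to 1221 CPM in Notch2-/- and 175 to 15289 CPM in control libraries. Of these 29 genes 1 fell in Rbpj-/- and in Notch1-/-, where 15.2% and 26.7% of all genes tested passed in either direction. It was the chemokine Cxcl11, which stood at 0.201 ± 0.146 CPM in Rbpj-/- and 1.41 ± 1.30 CPM in Notch1-/-, against control libraries at 17.9 ± 21.2 CPM. Its log2 fold change was -6.42 ± 1.89 in Rbpj-/- (adjusted p = 0.0263) and -3.66 ± 1.35 in Notch1-/- (adjusted p = 0.0461). In Notch1-/-Notch2-/- and Notch2-/- 0 passed by edgeR, 1 and 24 had an unadjusted p under 0.05, DESeq2 called 1 and 12, and voom 3 and 3. The edgeR shares of all genes there were 37.1% and 0.295%, and in Notch2-/- DESeq2 called 344 of all genes and voom 1790. The list's median difference was -1.89 in Rbpj-/-, -1.12 in Notch1-/-Notch2-/-, 0.27 in Notch1-/- and -3.62 in Notch2-/-, where the median of all genes tested was 0.01 to 0.07. Of 26 type I response genes 1 fell in Notch1-/-Notch2-/-, Ifit2, an inhibitor of viral translation, at -0.64 ± 0.22 (adjusted p = 0.0262), and 0 in the other mutants, where Ifit2 differed by -0.56, -0.04 and 0.09 in Rbpj-/-, Notch1-/- and Notch2-/-. At an unadjusted p under 0.05 stood 6, 1 and 13 in these 3 groups, DESeq2 called 3, 0 and 7, and voom 0, 1 and 1. The edgeR counts of the gamma and type I lists lie below the shares of all genes and are no result about either list. The share of all genes at an unadjusted p under 0.05 is not given, so the counts at that p are no result about them either.

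Of 17 other receptors tested that signal through JAK kinases, 4 fell in Rbpj-/-, 8 in Notch1-/-Notch2-/-, 6 in Notch1-/- and 0 in Notch2-/-, and none rose, at median differences of -0.63 in Rbpj-/-, -0.80 in Notch1-/-Notch2-/-, -0.74 in Notch1-/- and -0.32 in Notch2-/-. Of all genes tested, 15.2% passed in Rbpj-/-, 37.1% in Notch1-/-Notch2-/-, 26.7% in Notch1-/- and 0.295% in Notch2-/-, in either direction. With 17 genes, counts this close to those shares are no result about the receptors as a list. The interleukin 6 receptor Il6ra was at 0.585 ± 0.344 CPM in Rbpj-/-, 0.567 ± 0.278 CPM in Notch1-/-Notch2-/- and 0.599 ± 0.171 CPM in Notch1-/-, against 2.92 ± 1.54 CPM in control, with adjusted p of 3.13e-04 to 0.00458. The interleukin 10 receptor chain Il10ra was at 1.87 ± 0.729 CPM in Rbpj-/-, 1.38 ± 0.623 CPM in Notch1-/-Notch2-/- and 2.66 ± 3.08 CPM in Notch1-/-, against 15.2 ± 6.92 CPM in control, with adjusted p of 4.30e-04 to 0.00887. Il12rb1, a chain of the interleukin 12 receptor, fell in Rbpj-/- (-4.97 ± 1.28, adjusted p = 0.0140), Il10rb in Notch1-/-Notch2-/- (-0.74 ± 0.17, adjusted p = 0.00235) and Csf2rb in Notch1-/- (-2.28 ± 0.69, adjusted p = 0.0196). The microglia and macrophage sums given above were lower in Rbpj-/-, Notch1-/-Notch2-/- and Notch1-/- as well. With that score in the fit 0 of 17 passed in each of the 4 comparisons by edgeR. Calls over all genes also fell in that fit in each of the 4 comparisons, among them to 50 in Rbpj-/- and 879 in Notch1-/-Notch2-/-. Whether those cells have a part in the receptor levels was not tested. In Notch2-/- 5 of 17 had an unadjusted p under 0.05, DESeq2 called 1 and voom 4. Il6st, the shared signal chain and the most abundant of them, differed there by 0.04 (adjusted p = 0.921).

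Among 17 other inhibitors of the pathway, 4 rose in Rbpj-/-, 4 rose and 1 fell in Notch1-/-Notch2-/-, 4 rose and 1 fell in Notch1-/-, and none passed in Notch2-/-. The shares of all genes tested that passed in these comparisons were those given for the receptors, so these counts are no result about the inhibitors as a list. Socs3, which restrains receptors that use the Il6st chain, rose to 29.8 ± 24.8 CPM in Rbpj-/- and 27.7 ± 11.0 CPM in Notch1-/-Notch2-/-, against 11.0 ± 2.38 CPM in control (1.45 ± 0.41 and 1.34 ± 0.39, adjusted p 0.0230 and 0.0108). Socs7 rose by 0.52 ± 0.15 in Rbpj-/-, 0.57 ± 0.14 in Notch1-/-Notch2-/- and 0.54 ± 0.13 in Notch1-/- (log2 fold change, adjusted p 0.00280 to 0.0208). Sh2b3, an adaptor that restrains Jak2, rose in Rbpj-/- (0.53 ± 0.13, adjusted p = 0.0122) and Notch1-/- (0.49 ± 0.12, adjusted p = 0.00579). Ptpn6, a phosphatase of blood cells, fell in Notch1-/-Notch2-/- (-1.62 ± 0.53, adjusted p = 0.0201) and Notch1-/- (-1.92 ± 0.50, adjusted p = 0.00843). In Notch2-/- 4 of 17 had an unadjusted p under 0.05, DESeq2 called 0 and voom 3, and the most abundant, Ptpn11, differed by 0.04 (adjusted p = 0.880). With the microglia and macrophage score in the fit 0 of 17 passed in each of the 4 comparisons by edgeR. Calls over all genes also fell in that fit, as given for the receptors. Of 8 other JAK and STAT genes, Stat6, the STAT of interleukin 4 signalling, fell in Notch1-/- (-1.14 ± 0.36, adjusted p = 0.0255). In Rbpj-/-, Notch1-/-Notch2-/- and Notch2-/- 0 of 8 passed by edgeR, 1, 0 and 2 had an unadjusted p under 0.05, DESeq2 called 1, 0 and 0, and voom 0, 1 and 0.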

How the data were processed

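RNA was sequenced from sorted GFP-positive mouse glioma cells of 5 genotypes in 26 libraries, 30868828 to 48103535 counts each. The deposited table holds raw counts per gene with Entrez identifiers and a gene length. Per the submitters' processing notes, STAR and the mm10 build were used. Libraries came from a strand-marking TruSeq kit, per the labels' protocols. Not given in the sources used here are the aligner's version, the counting tool, the annotation and the strand setting, which leaves overlapping genes uncertain. Symbols came from a RefSeq table (GRCm38.p6), which matched 24374 of 24454 identifiers.

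Genes were filtered with filterByExpr by genotype, leaving 15617, with TMM normalization. A single model of genotype, without covariates, covered every library. Contrasts were tested with edgeR 4.0.16 (quasi-likelihood F-test, R 4.3.3) and adjusted over all genes tested by Benjamini-Hochberg, threshold 0.05. "Rose" and "fell" mark genes that passed. Counts at an unadjusted p stand without the share of all genes at that p, so they are no result about a list. DESeq2 totals over all genes are not given for Rbpj-/-, Notch1-/-Notch2-/- and Notch1-/- against control. The SE is the absolute log2 fold change divided by the root of F. CPM was taken on TMM-adjusted library sizes, with a prior count of 2 on the log2 scale. Alternatives were DESeq2 1.42.0 size factors and test, limma 3.58.1 voom with quality weights, no filter, at least 10 CPM in 4 libraries, a replicate block, a fit of the compared libraries alone, a covariate for microglia and macrophage genes, omission of the 3 libraries with both Xist over 50 CPM and Ddx3y over 20 CPM, and omission of each library. The fit and the motif search were tested on simulated data with known answers. Replicate libraries differed by more than sampling noise, so none was a duplicate.

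Genes named are the 9 members, up to 3 passing genes of each pathway list and contrast ranked by adjusted p (failing that, the list's most expressed gene), the 3 genes most correlated with each member (predicted genes and pseudogenes left out), and Notch1, Notch2 and Rbpj. A few genes given by this rule are not reported here. The members and lists were chosen with earlier results of these data known.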

Additional observations from a re-analysis of the deposited data

Results flagged for a closer look

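Among the 45 combinations of a member and a genotype, 7 held a library that stood apart from the others of its genotype, with a gap to the next library larger than Dixon's 95% critical value for the group's size. For independent groups of normally distributed values, chance would flag about 1 in 20. The groups here share libraries and correlated genes, and CPM was taken without logs, so that rate need not hold. In Notch1-/- replicate 2, Socs1 was at 13.9 CPM (the next library at 3.29), Ifnar2 at 110 CPM (the next at 54.6) and Jak1 at 129 CPM (the next at 105), all as the highest of 6. In Notch1-/-Notch2-/- replicate 4, Socs1 was the highest of 5 at 4.37 CPM (the next at 1.10), and Ifnar1 the lowest of 5 at 80.2 CPM (the next at 107). In Rbpj-/- replicate 4, Stat2 was the highest of 4 at 89.4 CPM (the next at 37.0). In control replicate 3, Jak1 was the lowest of 6 at 87.0 CPM (the next at 106).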

How the results depend on the processing

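Of 1639 values of the members under an alternative setting, 1534 kept their direction and side of the threshold, 60 changed sign, 23 newly passed and 22 no longer passed. The cause of each change below was not tested. Members changed in Notch1-/- against control, 2 in the report, numbered 1 with DESeq2's size factors, with no filter, with at least 10 CPM in 4 libraries, with voom, with only the compared libraries and without the 3 libraries holding both Xist and Ddx3y, and 0 with the microglia and macrophage score. In Rbpj-/- against control, 1 in the report, they numbered 0 with only the compared libraries and 0 with the score. In Notch1-/-Notch2-/- against control, 1 in the report, they numbered 2 with voom and with only the compared libraries and 0 with the score. Where the report has 0, voom called 2 in Notch2-/- against control, 1 in Notch1-/- against Notch2-/- and 1 for the interaction, DESeq2 called 1 and the score fit 5 in Notch1-/- against Notch2-/-.
Over all genes, Rbpj-/- against control (2378) gave 1533 with the 10 CPM filter, 3747 with voom, 1222 with only the compared libraries, 50 with the score and 1492 without the 3 libraries. Notch1-/-Notch2-/- against control (5794) gave 879 with the score, and Notch1-/- against control (4174) gave 6907 with voom and 41 with the score. Notch2-/- against control (46) gave 16 with the 10 CPM filter, 344 with DESeq2, 1790 with voom, 182 with only the compared libraries, 19 with the score and 12 without the 3 libraries. Rbpj-/- against Notch1-/-Notch2-/- (124) gave 81 with no filter, 73 with the 10 CPM filter, 317 with DESeq2, 31 with only the compared libraries and 76 without the 3 libraries. Notch1-/- against Notch2-/- (482) gave 193 with the 10 CPM filter, 1099 with DESeq2, 1904 with voom, 294 with only the compared libraries, 756 with the score and 142 without the 3 libraries. The interaction (12) gave 124 with DESeq2, 924 with voom and 5 without the 3 libraries, and any difference (4581) gave 7171 with voom and 903 with the score.
The following log2 fold changes changed sign. Against control, Jak2 in Notch2-/- was -0.0031 with DESeq2's size factors, -0.0031 with its test and -0.023 with the 10 CPM filter, and Ifnar1 in Rbpj-/- was -0.014 with that filter and -0.0087 without the 3 libraries. Without these 3, Stat2 in Notch1-/-Notch2-/- was 0.15 and Irf9 in Notch1-/- 0.16. With voom, Stat2 in Notch1-/- was -0.043 and Socs1 there -0.85, and Socs1 in Rbpj-/- against Notch1-/-Notch2-/- was 0.48. With the score, Rbpj-/- against control gave -0.074 for Ifngr2, -0.097 for Ifnar1, 0.38 for Ifnar2, 0.98 for Stat2, 0.58 for Irf9 and 0.57 for Socs1. Notch1-/-Notch2-/- against control then gave 0.044 for Ifngr1, 0.46 for Ifnar2, 2.36 for Stat2, 1.54 for Irf9 and 2.04 for Socs1. Notch1-/- against control gave -0.37 for Ifngr2, -0.070 for Ifnar1, 0.66 for Ifnar2, 0.051 for Jak1 and 1.72 for Irf9. Ifngr2 in Notch2-/- against control was -0.0028, and Ifnar2 in Rbpj-/- against Notch1-/-Notch2-/- was -0.085.
Same-numbered libraries of different genotypes had correlations of -0.417 to 0.627 over 47 pairs (median -0.0444, 13 over 0.1). Pairs with other numbers had -0.562 to 0.598 over 222 pairs (median -0.0141, 80 over 0.1). The numbers thus showed no pairing of the libraries, though a weak one could be missed. With the replicate block, 2 members changed in Notch1-/-Notch2-/- against control, the second being Jak2 (adjusted p = 0.0459), Stat2 there was 0.026 and Socs1 in Notch1-/- against control was -0.10. Genes changed with the replicate block numbered 1304 in Rbpj-/- against control, 25 in Notch2-/- against control, 50 in Rbpj-/- against Notch1-/-Notch2-/-, 300 in Notch1-/- against Notch2-/- and 6 for the interaction.
With each library left out in turn, members changed numbered 0 to 2 in Rbpj-/-, 1 to 2 in Notch1-/-Notch2-/- and 1 to 2 in Notch1-/- against control, and 0 to 1 in Notch1-/- against Notch2-/-. All genes changed numbered 1132 to 3292 in Rbpj-/- and 21 to 83 in Notch2-/- against control, 21 to 156 in Rbpj-/- against Notch1-/-Notch2-/-, 275 to 841 in Notch1-/- against Notch2-/- and 5 to 227 for the interaction. Log2 fold changes that crossed 0 against control ran from -0.11 to 0.32 (Jak2) and -0.0093 to 0.12 (Ifnar1) in Rbpj-/-, from -0.58 to 0.20 (Stat2) and -0.14 to 0.0027 (Ifnar1) in Notch1-/-Notch2-/-, from -0.077 to 0.88 (Stat2), -0.30 to 0.18 (Irf9) and -1.01 to 0.64 (Socs1) in Notch1-/-, and from -0.043 to 0.13 (Jak1) and -0.20 to 0.18 (Jak2) in Notch2-/-. In Rbpj-/- against Notch1-/-Notch2-/- they ran from -0.00025 to 0.22 (Ifnar2) and -1.18 to 0.49 (Socs1), in Notch1-/- against Notch2-/- from -0.12 to 0.049 (Ifngr2) and -0.19 to 0.0015 (Jak1), and for the interaction from -0.36 to 0.022 (Jak2), -0.093 to 1.24 (Stat2) and -0.36 to 2.08 (Socs1). Socs1, with 12 to 508 counts a library, is the member whose precision depth limits most.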
